A study of Mus musculus with 10 samples.

Results

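The Serpina3 genes of the mouse lie side by side on chromosome 12. The 8 members described here, Serpina3c, Serpina3f, Serpina3g, Serpina3h, Serpina3i, Serpina3k, Serpina3m and Serpina3n, are the rows with these symbols among the 54532 genes of the expression table. They were put together because their levels were known to differ between the groups compared here, so the group differences of the members are given as a description, without a test. Of these 8, 5 had a mean of at least 0.5 FPKM over the 10 lungs (Serpina3c, Serpina3f, Serpina3g, Serpina3h and Serpina3n), and 3 lay under that limit (Serpina3i, Serpina3k and Serpina3m). FPKM relates the fragments read from a gene to its length and to the size of the library, so levels can be set side by side between genes.

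The study compared lungs of WT C57/BL6 pups, male or female, taken at postnatal day (P) 14 after surgery at P7. In the IncPBF group (increased pulmonary blood flow, 5 lungs) a needle was passed from the abdominal aorta into the inferior vena cava to open a fistula that sends arterial blood back to the right heart. In the sham group (5 lungs) the same operation was done without the puncture. Bulk RNA-sequencing of whole lung pools the RNA of all its cells, so fewer cells of a type and less RNA per cell cannot be told apart. The labels name no litter or day of surgery, and p-values measure the spread between these lungs. Fragments on genes numbered 16103423 to 20318525 per IncPBF lung and 18171494 to 19400575 per sham lung.

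Serpins are protease inhibitors that work as bait. An exposed stretch near the end of the protein, the reactive centre loop, is cut by the target protease, snaps into the body of the serpin and drags the protease with it into an inactive complex. Humans have a single SERPINA3 gene, which encodes alpha-1-antichymotrypsin, an acute phase protein of plasma. In the mouse the gene has been duplicated many times, and the copies differ mostly in the loop, and so in the proteases they can meet. Serpina3n is the copy best known outside the liver, a secreted inhibitor of proteases such as granzyme B, leukocyte elastase and cathepsin G, and its mRNA is known to respond to glucocorticoids and to inflammatory cytokines. Serpina3g, known as Spi2A, stays inside the cell and inhibits cathepsins. Serpina3k is a plasma protein made by hepatocytes.

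The loop shows what the copies share and where they part. The stretches below are 60 bases of the mRNA of the 4 most abundant members, copied 5′ to 3′ from the longest coding transcript of each gene in GENCODE M21. They start at codon 367 of the 418 codons of Serpina3n, in the hinge of the loop. The 24 bases of the hinge are in capitals, and the 36 bases that follow, which encode the exposed part, are in lower case.
Serpina3n: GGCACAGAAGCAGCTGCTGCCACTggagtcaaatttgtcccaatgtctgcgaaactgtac
Serpina3c: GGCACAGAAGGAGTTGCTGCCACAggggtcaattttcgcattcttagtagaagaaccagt
Serpina3g: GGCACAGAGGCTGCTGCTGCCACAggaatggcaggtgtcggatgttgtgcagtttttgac
Serpina3f: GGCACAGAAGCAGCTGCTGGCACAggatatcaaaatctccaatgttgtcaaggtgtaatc
Over the 6 other members with a match, the hinge differed from that of Serpina3n at 1 to 3 of its 24 bases, and the next 36 bases, compared without gaps, at 14 to 24. Serpina3i was the nearest, at 14 of 36 bases, and Serpina3k the farthest, at 24. No match to the hinge was found in the transcript of Serpina3h, which the table lists as a transcribed unprocessed pseudogene.

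On GRCm38, the build whose GENCODE M21 coordinates match those of all 8 members, the cluster runs over 267.9 kb. Serpina3c (chr12:104146382-104153870, minus strand) lies at one end and Serpina3n (chr12:104406729-104414329, plus strand) at the other. Between them lie Serpina3f (chr12:104214544-104221129), Serpina3g (chr12:104236245-104241939), the pseudogene Serpina3h (chr12:104247905-104253669) and Serpina3i (chr12:104263122-104269372), all on the plus strand. Serpina3k (chr12:104338486-104346144) and Serpina3m (chr12:104338486-104394257), also on the plus strand, start at the same base and share 1 exon of 60 bases. The transcripts of the 8 members are alike at 76.1% to 91.5% of aligned bases, so short reads can be assigned to the wrong copy. The share of 50-base windows of a member that also occur in transcripts of another gene was 4.25% for Serpina3c, 6.90% for Serpina3n, 10.6% for Serpina3f, 15.5% for Serpina3g and 21.9% for Serpina3h. Whether the counting used strand is not given in the sources used here.

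The promoters of Serpina3n and Serpina3c, the genes at the far ends of the cluster, are close copies. RefSeq promoter windows (GRCm38.p6, 250 bases before to 50 after the start of the gene) were on hand for 5 of the 8 members, and the window of Serpina3g is shown beside this pair for contrast. Capitals mark matches, on either strand, to AGAACA (1 arm of the site of the glucocorticoid receptor), ACANNNTGT (a loose form of its full site) and TTCNNNGAA (the site of STAT dimers), each window written along the strand of its gene.
Serpina3n, chr12:104406458-104406757, plus strand: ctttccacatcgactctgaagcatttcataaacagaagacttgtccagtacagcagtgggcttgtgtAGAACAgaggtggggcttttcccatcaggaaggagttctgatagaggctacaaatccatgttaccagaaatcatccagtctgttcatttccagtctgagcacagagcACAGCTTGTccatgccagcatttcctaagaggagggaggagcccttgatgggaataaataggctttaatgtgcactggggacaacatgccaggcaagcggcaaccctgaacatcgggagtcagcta
Serpina3c, chr12:104153823-104154122, minus strand: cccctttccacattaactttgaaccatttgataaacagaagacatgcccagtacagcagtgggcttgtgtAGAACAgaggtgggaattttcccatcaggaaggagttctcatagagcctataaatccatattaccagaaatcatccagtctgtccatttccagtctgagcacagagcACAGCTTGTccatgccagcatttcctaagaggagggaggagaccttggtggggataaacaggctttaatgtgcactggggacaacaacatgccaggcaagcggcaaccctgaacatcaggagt
Serpina3g, chr12:104235897-104236196, plus strand: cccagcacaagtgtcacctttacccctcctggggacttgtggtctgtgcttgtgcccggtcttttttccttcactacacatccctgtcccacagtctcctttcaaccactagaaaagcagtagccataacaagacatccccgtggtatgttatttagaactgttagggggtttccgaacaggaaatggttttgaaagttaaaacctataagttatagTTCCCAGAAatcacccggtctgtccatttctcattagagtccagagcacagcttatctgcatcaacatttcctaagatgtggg
The windows of Serpina3n and Serpina3c were identical at 275 of 294 aligned bases (93.5%), against 70.6% to 83.7% for the other 9 pairs. Their transcripts were identical at 81.6%, near the median of 81.7% over all 28 pairs. AGAACA lay at -183 bases from the start in Serpina3n and at -180 in Serpina3c, and ACANNNTGT at -76 and -73, with no overlap between the motifs. Serpina3f and Serpina3i also held both motifs, and Serpina3g held neither. Over all 32544 RefSeq windows of this length, 18.9% held AGAACA and 6.83% held ACANNNTGT. TTCNNNGAA occurred in Serpina3f, Serpina3g and Serpina3i, against 8.33% of all windows. A loose form of the interferon-stimulated element, GAAA and GAAA 2 bases apart, occurred in none of the 5 (3.45% of all windows), and TTGCNNAA, a loose C/EBP site, in Serpina3f alone (10.8%). These are matches of letters and were not tested for binding.

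In sham lungs the cluster was led by Serpina3n. Its FPKM in sham lungs 1 to 5 were 46.6, 39.4, 27.4, 40.3 and 41.3. In IncPBF lungs 1 to 5 they were 2.61, 3.70, 2.36, 2.92 and 3.01. The highest IncPBF lung was thus far below the lowest sham lung, and the group means were 2.92 ± 0.506 and 39.0 ± 7.05 FPKM (SD, n = 5), a 13.4-fold lower level. Behind these values stood 90 to 143 fragments per IncPBF lung and 1065 to 1725 per sham lung. On log2(FPKM + 0.1), IncPBF minus sham, the difference was -3.69 (SE 0.159), the 6th lowest among 15388 genes.

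Serpina3c, whose promoter is the close copy, was next. In sham lungs its FPKM were 10.8, 10.1, 8.43, 9.03 and 9.21, and in IncPBF lungs 3.06, 3.28, 3.30, 3.04 and 3.57. The groups did not overlap, and the spread within each was small, with a mean of 3.25 ± 0.216 in IncPBF and 9.53 ± 0.952 in sham lungs (SD, n = 5). The level was 2.93-fold lower, a log2 difference of -1.52 (SE 0.0727), the 97th lowest of the 15388. Serpina3n and Serpina3c thus shared a direction but not a size, the difference being far larger for Serpina3n.

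The intracellular serpin Serpina3g overlapped between the groups. Its FPKM were 4.10, 3.45, 6.03, 4.92 and 2.95 in sham lungs and 3.32, 2.26, 1.90, 2.20 and 2.24 in IncPBF lungs, where lung 1 reached above the lowest sham lung. The means were 4.29 ± 1.22 and 2.38 ± 0.541 (SD, n = 5), a log2 difference of -0.80 (SE 0.211). Serpina3f, its neighbour and near relative (88.8% of aligned transcript bases), was at 1.24, 0.672, 1.95, 0.685 and 1.30 FPKM in sham lungs. In IncPBF lungs it was at 2.80, 0.186, 0.355, 0.202 and 0.315 FPKM. IncPBF lung 1 held the highest value of all 10 lungs, and the other 4 IncPBF lungs lay below every sham lung. The log2 difference over all lungs was -1.12 (SE 0.646), while IncPBF lungs 2 to 5 alone gave -1.73 and IncPBF lung 1 alone gave 1.29. The group difference of Serpina3f was thus negative with and without IncPBF lung 1, and that lung by itself lay on the other side of the sham lungs.

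The pseudogene Serpina3h was at 0.777, 1.18, 1.33, 1.06 and 0.681 FPKM in sham lungs and at 0.469, 0.335, 0.755, 0.242 and 0.504 in IncPBF lungs, on 6 to 36 fragments per lung. IncPBF lung 3 lay above the lowest sham lung, sham lung 5. Its log2 difference was -1.01 (SE 0.269).

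The remaining members had few fragments or none. The limit of detection, set at 3 fragments, was 0.0650 to 0.101 FPKM for these genes. Serpina3i held 6 to 17 fragments in sham lungs and 1 to 9 in IncPBF lungs, with means of 0.296 ± 0.0936 and 0.123 ± 0.0775 FPKM (SD, n = 5) and overlapping groups. Serpina3m was counted at 12, 2, 1, 5 and 9 fragments in sham lungs and at 1, 0, 0, 0 and 0 in IncPBF lungs. The ratio of sham to IncPBF, on fragments pooled over the lungs of each group and scaled to the libraries, was 29.8. Its exact 95% interval of 4.93 to 1216 covers counting error only. It leaves out the spread between lungs and is no test of the groups. The separation of its groups came down to 1 fragment in IncPBF lung 1 (0.0301 FPKM) against 1 fragment in sham lung 3 (0.0309 FPKM). Serpina3k, the liver serpin, had 0 fragments in all 10 lungs. The 6 other rows with a Serpina3 symbol, among them Serpina3a, Serpina3b and Serpina3j, had at most 6 fragments in any lung.

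**Figure D1:**
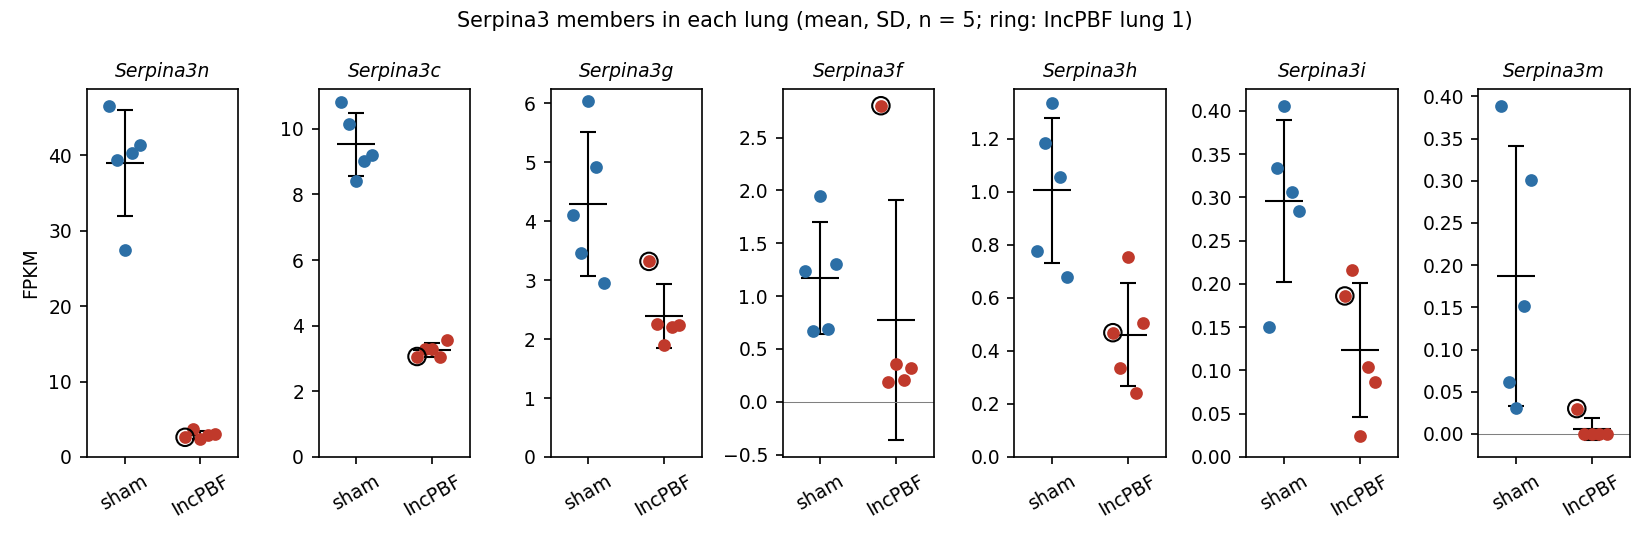
FPKM of 7 members in each sham lung (blue) and IncPBF lung (red), with the mean and SD over 5 lungs as black bars, each panel on its own linear scale. The ring marks IncPBF lung 1. Serpina3n and Serpina3c show no overlap of the groups, and the ringed lung is the highest of all for Serpina3f at 2.80 FPKM. Serpina3k, at 0 in every lung, is not drawn.

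Of the 8 members, 7 had a lower mean in the IncPBF lungs. All IncPBF lungs lay below all sham lungs for 3, namely Serpina3n, Serpina3c and, with its nearest values under the limit of detection, Serpina3m. Such a separation occurred in 5.89% of the 31400 genes above 0 in any lung, and in 11.2% of the 15388 genes with a mean of at least 0.5 FPKM. No member had all IncPBF lungs above all sham lungs. The members were chosen on this contrast, and nothing is read from these counts.

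**Figure D2:**
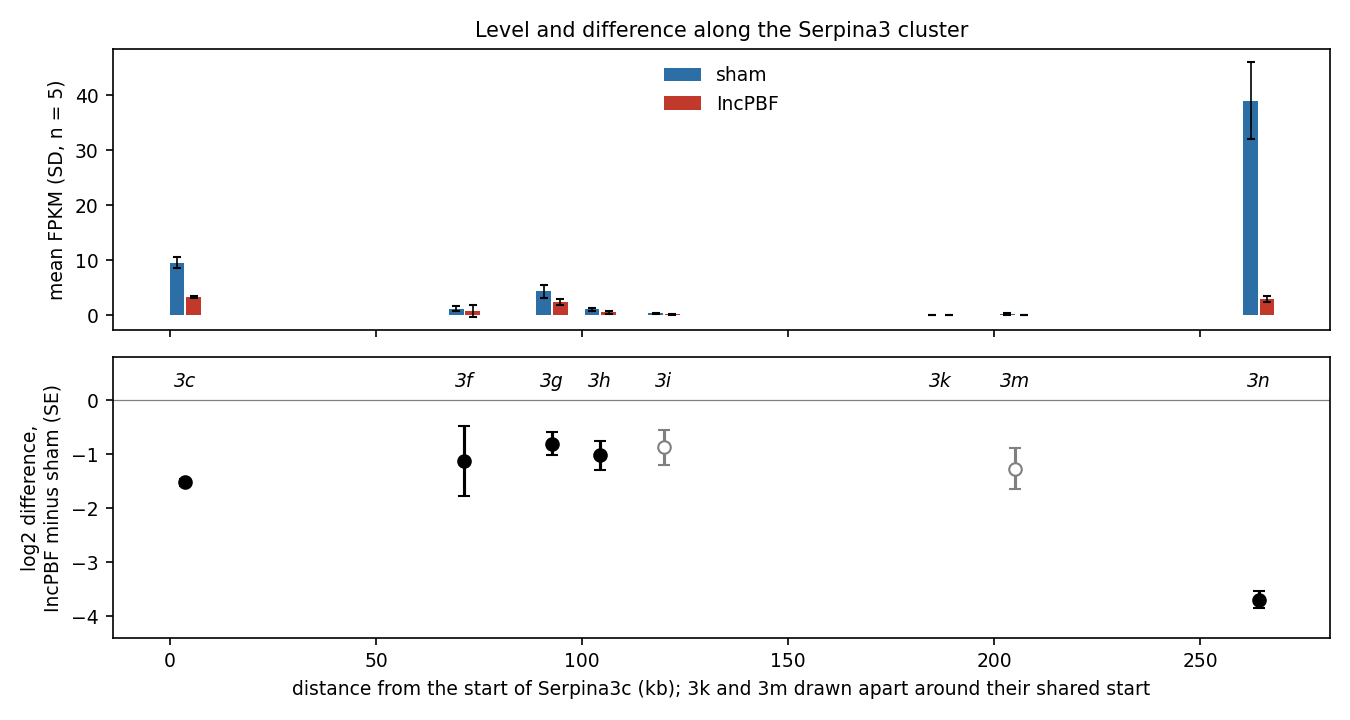
Upper panel: mean FPKM with SD (5 lungs) of each member in sham (blue) and IncPBF (red) lungs, placed by distance in kb from the start of Serpina3c. Lower panel: log2 difference, IncPBF minus sham, with SE. Open grey points are Serpina3i and Serpina3m, which lie under 0.5 FPKM, and Serpina3k has no value. On this scale, with a pseudocount of 0.1, the most negative differences are at the ends, -3.69 for Serpina3n and -1.52 for Serpina3c, while Serpina3m, at -1.27 here, is at -3.43 with a pseudocount of 0.01.

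The order of the members changed with the level of Serpina3n. In sham lungs Serpina3n was above Serpina3c, Serpina3c above Serpina3g, and Serpina3g above Serpina3f, each without overlap. Serpina3f and Serpina3h were not separated, nor were Serpina3i and Serpina3m. In IncPBF lungs Serpina3c (3.25 FPKM), Serpina3n (2.92) and Serpina3g (2.38) overlapped, with Serpina3c above Serpina3n in 4 of 5 lungs. The summed FPKM of the 8 members was 45.6 to 64.0 in sham lungs and 8.70 to 12.5 in IncPBF lungs, means of 55.5 and 9.92. Serpina3n made up 60.1% to 73.7% of that sum in sham lungs and 20.9% to 37.1% in IncPBF lungs. Without Serpina3n the sums were 14.7 to 18.2 and 5.79 to 9.87 FPKM, so the rest of the cluster was 2.36-fold lower, compared with 5.60-fold for all 8.

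**Figure D3:**
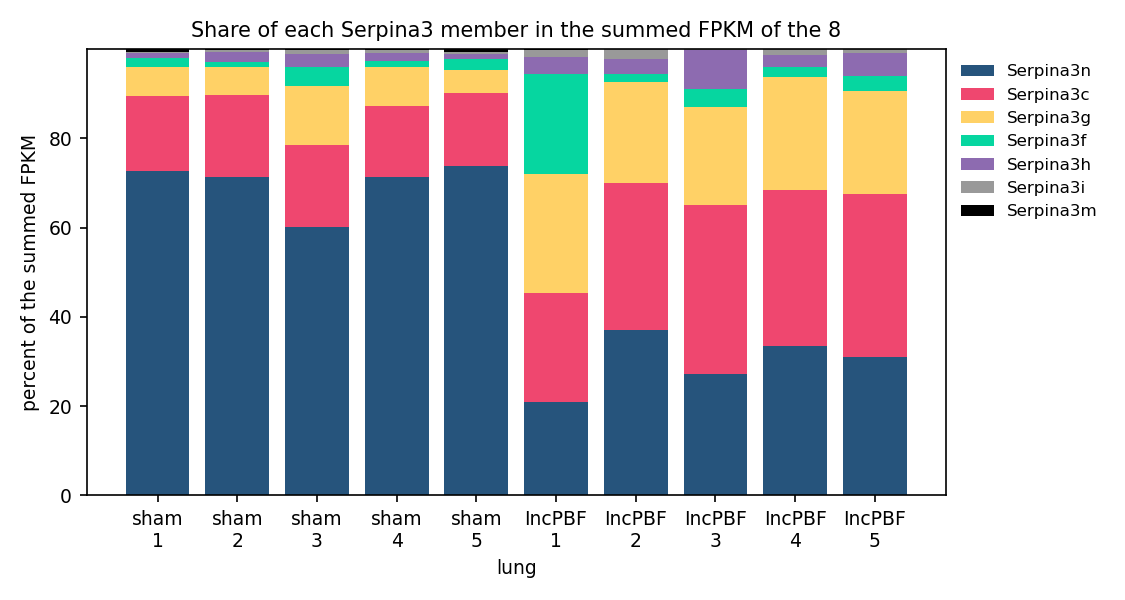
Percent of the summed FPKM of the 8 members taken by each, in each lung. Serpina3n fills 60.1% to 73.7% of the sham bars and 20.9% to 37.1% of the IncPBF bars; the green part, Serpina3f, reaches 22.5% in IncPBF lung 1 and is at most 4.27% elsewhere.

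The lungs also varied within the groups. Sham lung 3 had the lowest Serpina3n and Serpina3c among the sham lungs, and the highest Serpina3g, Serpina3f, Serpina3h and Serpina3i. Over the deviations of the 10 lungs from their group means on log2(FPKM + 0.1), Pearson's r was 0.58 between Serpina3n and Serpina3c and 0.58 between Serpina3f and Serpina3g. It was -0.45 between Serpina3n and Serpina3f, -0.43 between Serpina3n and Serpina3g and -0.67 between Serpina3n and Serpina3h. These are descriptions over 10 lungs that share libraries and scaling. Among 15383 other genes, those most like Serpina3n by this measure were Zfp91 (0.96), Vps37a (0.95), Kif5b (0.94), Sft2d3 (0.93) and Casc4 (0.93). Those least like it were Il20rb (-0.93), H2afx (-0.92) and Neurl3 (-0.92). Such extremes, picked from 15383 values over only 10 lungs, can be this large by chance. Whether any of these genes varies with Serpina3n beyond that was not tested. None of the 5 most like genes passed the test between groups; their log2 differences ran from -0.22 to -0.04.

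The sex-linked genes were not balanced between the groups. Xist, the RNA of the inactive X chromosome, was at 52.4 to 66.5 FPKM in IncPBF lungs 2 to 5, at 0.0144 in IncPBF lung 1 and at 0.0770 or less in the sham lungs. Ddx3y, a gene of the Y chromosome, was at 18.6 FPKM in IncPBF lung 1, at 21.8 to 24.6 in the sham lungs, and at most 0.00926 in IncPBF lungs 2 to 5. In those 4 lungs sex and surgery cannot be told apart. In IncPBF lung 1, which like the sham lungs has Ddx3y and almost no Xist, Serpina3n (2.61 FPKM) and Serpina3c (3.06) lay below every sham lung, 15.0-fold and 3.11-fold under the sham means. That lung alone gave a log2 difference of -0.32 for Serpina3g.

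IncPBF lung 1 stood apart in interferon genes as well. Serpina3f and Serpina3g are known to respond to interferon gamma in immune cells. Over the 29 tested genes of an interferon list, the mean log2(FPKM + 0.1) was 3.58 in IncPBF lung 1, 2.30 to 2.50 in the other IncPBF lungs, and within 2.63 to 2.72 for all sham lungs. Of these 29 genes, 22 had their highest value of all 10 lungs in IncPBF lung 1, as did 7.19% of all genes tested. Serpina3f was the highest of 10 there and Serpina3g the highest of the IncPBF lungs, while Serpina3n and Serpina3c in that lung lay among the other IncPBF lungs.

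**Figure D4:**
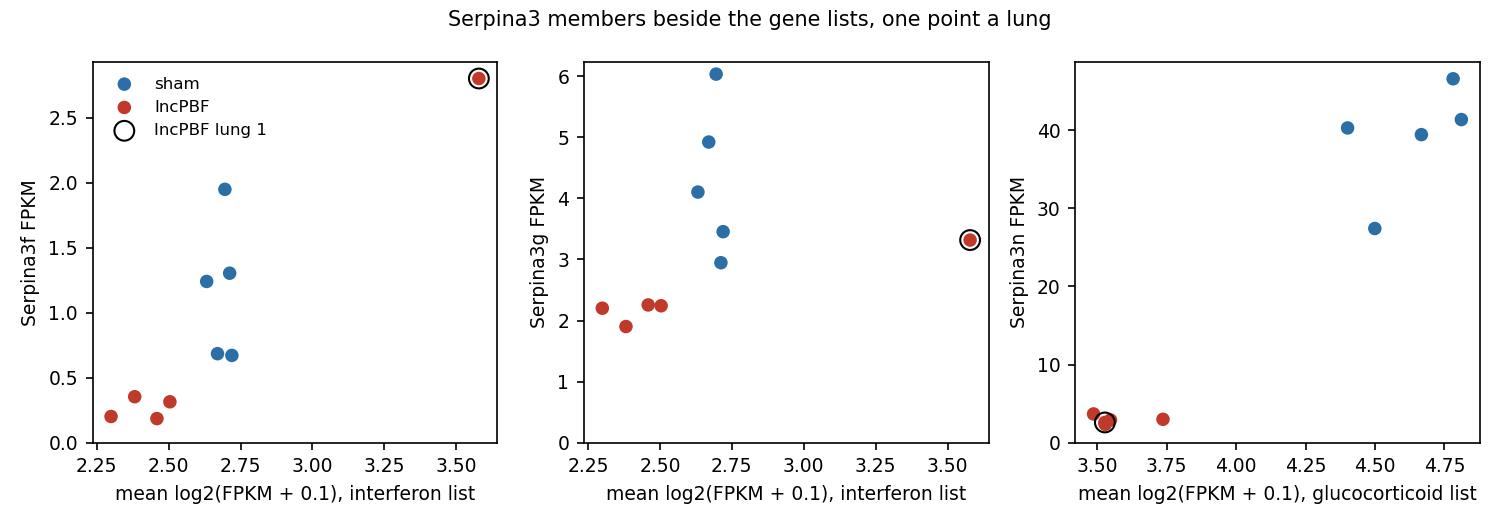
FPKM of Serpina3f, Serpina3g and Serpina3n in each lung (vertical, linear) against the mean log2(FPKM + 0.1) of the interferon list (first 2 panels) or the glucocorticoid list (last panel). Sham lungs are blue and IncPBF lungs red, and the ring marks IncPBF lung 1, which lies at 3.58 on the interferon scale. In the last panel the groups stand apart on both axes. Serpina3n and the glucocorticoid list were both chosen with earlier results of these data known, so nothing is read from that separation.

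The genes around the members were then compared between the groups. Of the 15388 genes tested with limma, 32.3% passed an adjusted p of 0.05, 16.1% higher and 16.2% lower in IncPBF lungs, with a median log2 difference of 0.01. When all lungs were scaled to the same total of fragments, 3559 genes were higher and 1782 lower, against 2480 and 2490 as deposited. All adjusted p-values below come from this fit with Benjamini-Hochberg adjustment. The lists were drawn up with earlier results of these data known, and their counts stand beside these shares without a test of the list.

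The neighbouring genes on chromosome 12 were counted in the same way. Within 1000000 bases of the members, 14 of 75 genes were expressed at the tested level. Of these, 3 passed, which is 21.4%, beside 32.3% of all genes tested: Asb2 was higher (log2 0.61, SE 0.196, adjusted p = 0.0336), as was Glrx5 (0.21, adjusted p = 0.0448), and Ddx24 was lower (-0.19, adjusted p = 0.0242). Without IncPBF lung 4 or without sham lung 5, none of the 14 passed, and without IncPBF lung 1 or 2 or sham lung 1 or 4, 1 passed. Ifi27 (46.7 to 55.9 FPKM in IncPBF and 48.4 to 57.5 in sham lungs), Ppp4r4 (means of 7.73 and 7.65), Dicer1 (6.37 and 6.93) and Ifi27l2a (7.29 and 5.72) did not pass. The other clade A serpins, a list of 18 that holds the alpha-1-antitrypsin genes Serpina1a to Serpina1e and the corticosteroid-binding globulin gene Serpina6, summed to less than 1 FPKM in every lung (0.349 to 0.931), with 7 of them at 0 throughout.

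Serpins outside clade A moved less than Serpina3n. Of 11 tested, 6 fell and 1 rose. Serping1, the C1 inhibitor of the complement system, fell from 142 ± 20.1 to 94.1 ± 3.80 FPKM (SD, n = 5; log2 -0.58, SE 0.0906, adjusted p = 0.000804). Serpind1, the heparin cofactor, fell from 0.937 to 0.253 FPKM (adjusted p = 0.00148), and Serpinb1a, Serpinb9 and Serpinb6b also fell (log2 -0.38, -0.34 and -0.31). Serpine2, protease nexin 1, rose from 38.9 ± 9.15 to 76.6 ± 2.36 FPKM (log2 1.01, SE 0.136, adjusted p = 0.000325). Serpinh1, the collagen chaperone (402 in IncPBF, 341 in sham), Serpinf1 (9.15 and 8.58) and Serpinb8 (3.25 and 3.22 FPKM) did not pass. The share of 63.6% called compares with 32.3% of all genes. With log2 Xist as a covariate, IncPBF lung 1 carries the contrast with the sham lungs. In that fit Serping1 was at -0.57, Serpine2 at 0.92, Serpind1 at -1.25, Serpinb1a at -0.46, Serpinb6b at -0.40 and Serpinb9 at -0.16.

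Of 24 listed proteases that serpins of this family could meet, 13 were tested, and of these 4 rose and 2 fell (46.2% called). The other 11 lay under the limit of 0.5 FPKM. They include granzyme B (Gzmb), leukocyte elastase (Elane) and cathepsin G (Ctsg), named above as targets of Serpina3n. The mast cell proteases Cma1 (0.438 to 1.42 FPKM, log2 1.41, adjusted p = 0.00448), Tpsb2 (0.581 to 1.16, adjusted p = 0.0437) and Mcpt4 (0.390 to 0.793, adjusted p = 0.0421) rose, at low levels. Cathepsin K (Ctsk) rose (log2 0.54), and cathepsin H (Ctsh) and granzyme M (Gzmm) fell (-0.64 and -0.66). Ctsz, Ctsb, Ctss and Ctsc, at 39.3 to 88.8 FPKM in IncPBF lungs, did not pass. The count was 3 without IncPBF lung 4 or without sham lung 4.

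Serpina3n is known as a target of glucocorticoids, so the receptor and genes it induces were listed, together with the related genes Nr3c2, Hsd11b1 and Hsd11b2. Of 23 tested, 15 fell and 1 rose (69.6% called). The gene that rose was Hsd11b2 (log2 0.49), and Hsd11b1 was among those that fell (-1.12). Zbtb16 fell from 32.4 ± 6.54 to 0.783 ± 0.370 FPKM (SD, n = 5; log2 -5.28, adjusted p = 1.15e-06), followed by Hif3a (-3.36), Fkbp5 (-2.63), Pdk4 (-2.28), Sult1a1 (-1.65) and Tsc22d3 (log2 difference of -1.63). Nr3c1, the receptor itself, was at 36.9 and 37.1 FPKM and did not pass (log2 -0.01, adjusted p = 0.922), nor did Dusp1, Sgk1 or Ddit4. The mean log2(FPKM + 0.1) over the 23 genes lay within 3.49 to 3.74 for IncPBF lungs. For sham lungs it lay within 4.40 to 4.81, without overlap. IncPBF lung 1, the one with almost no Xist, lay at 3.53. The list was drawn up with earlier results of these data known, so nothing is read from this separation. A link of these genes to Serpina3n was not tested. With log2 Xist as a covariate, IncPBF lung 1 carries the contrast with the sham lungs. In that fit Zbtb16 was at -5.04, Hif3a at -3.48, Fkbp5 at -2.76, Pdk4 at -2.22, Sult1a1 at -1.75 and Tsc22d3 at -1.44.

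Another known input to these genes is the IL-6 family, whose receptors share gp130 and signal through STAT3. Of 25 tested genes of this pathway and of the acute phase, 12 fell and 1 rose. Il6ra, the IL-6 receptor, fell from 8.90 to 3.06 FPKM (log2 -1.47, adjusted p = 0.000248), the receptor genes Il11ra1 and Lifr fell (-0.75 and -0.66), and so did the transcription factor gene Cebpd (-1.05). The complement gene C3 fell (log2 -1.22, adjusted p = 0.00217), and Timp1, an inhibitor of metalloproteases, rose (0.60, adjusted p = 0.00817). Of the acute phase genes, Hp (181 ± 42.6 FPKM in IncPBF and 165 ± 96.3 in sham lungs, SD, n = 5) and Lcn2 (22.6 and 28.6) did not pass, nor did Cebpb or Il1r1. The share called was 52.0%. With log2 Xist as a covariate, IncPBF lung 1 carries the contrast with the sham lungs. In that fit Il6ra was at -1.16, Il11ra1 at -0.85, Lifr at -0.67, Cebpd at -0.95, C3 at -1.43 and Timp1 at 0.60.

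Of the 29 interferon genes, 5 passed (17.2%). Ifit1 and Ifit3 (log2 -0.95 each) and Ifngr1 (-0.80) fell, while Socs1 (1.13) and Iigp1 (0.66) rose. Bst2, Ifngr2, Irf1 and Gbp2 did not pass. Without IncPBF lung 1 the count was 15, of which 13 were lower and 2 higher. With log2 Xist as a covariate, a fit in which IncPBF lung 1 carries the contrast with the sham lungs, it was 19, of which 18 were higher.

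**Figure D5:**
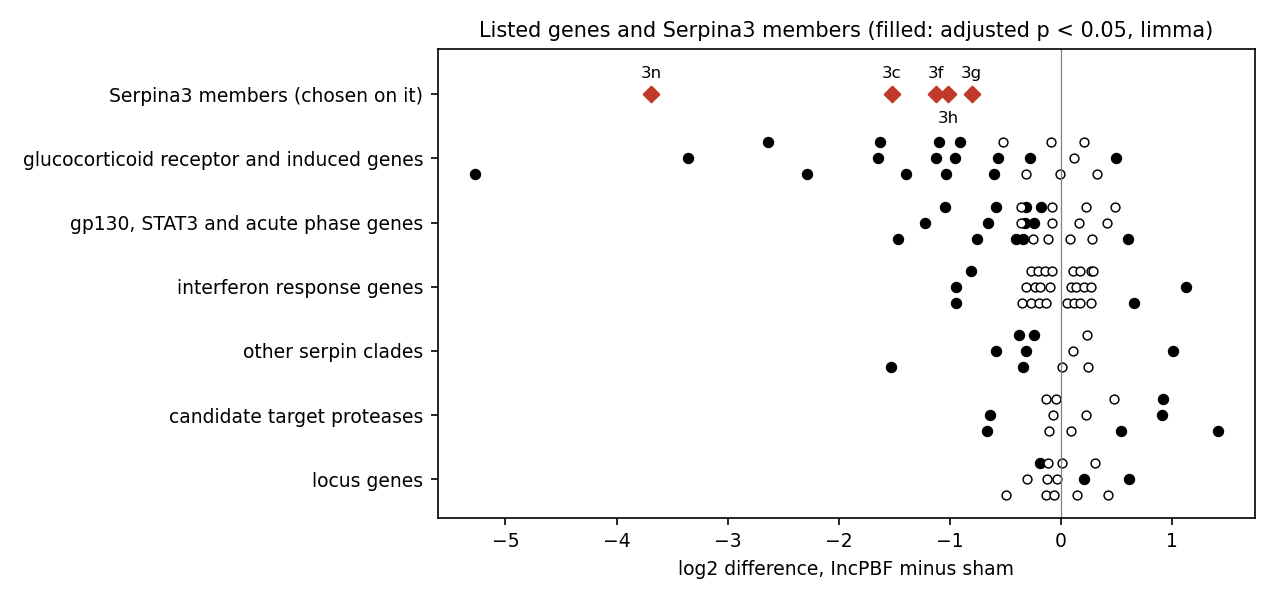
Log2 difference, IncPBF minus sham, of each tested gene of the lists (filled: adjusted p under 0.05 with limma; open: not passed) and of the 5 members above 0.5 FPKM (red diamonds, described without a test). Serpina3n at -3.69 lies beyond every listed gene except Zbtb16 at -5.28; the neighbours on chromosome 12 lie between -0.49 and 0.61.

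Markers of cell types of the lung, and of hepatocytes and adipocytes, were set beside these values. Hepatocyte markers summed to between 18.7 and 36.1 FPKM in sham lungs and to 3.47 to 8.10 in IncPBF lungs, but Cyp2e1, which the lung also expresses, made up most of that (means of 22.8 FPKM in sham and 4.45 in IncPBF lungs). Alb was at most 0.690 FPKM in any lung, and Cyp3a11 and Apoc3 were at 0 in all 10. Of 10 fibroblast markers 4 fell and 2 rose, with Pdgfra at 22.4 ± 3.42 and 58.1 ± 12.4 FPKM (SD, n = 5; adjusted p = 9.01e-05), and the summed list was 749 to 865 in IncPBF and 843 to 1070 in sham lungs. Markers of alveolar type 1 (AT1) cells were lower for 7 of 8 (sums of 1292 to 1404 and 1615 to 2152 FPKM), and of type 2 (AT2) cells for 5 of 8 (12361 to 15268 and 16071 to 19654). Most of the AT2 sums came from Sftpc, at means of 10428 FPKM in IncPBF and 12095 in sham lungs, which did not pass with limma (adjusted p = 0.358). Endothelial markers were lower for 5 of 8 and higher for 1 (1131 to 1230 and 1198 to 1519). Among all genes tested, 16.2% were lower and 16.1% higher. None of 9 neutrophil markers (42.2 to 83.8 and 33.8 to 71.2 FPKM) or 8 T and NK cell markers (13.5 to 18.4 and 14.3 to 19.5) passed with limma. Of 2 tested adipocyte markers, Cidec fell and Fabp4 did not pass (sums of 1.89 to 4.05 and 2.71 to 4.54). With log2 Xist as a covariate, IncPBF lung 1 carries the contrast with the sham lungs. In that fit the AT1 markers Ager and Hopx were at -0.51 and -0.33, the AT2 marker Sftpb at -0.57 and Pdgfra at -1.08. Without the covariate they were at -0.54, -0.50, -0.64 and -1.36. The part of any cell type in the levels of the Serpina3 genes was not tested.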

How the data were processed

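RNA of P14 lungs (5 IncPBF, 5 sham) was sequenced by the authors from NEBNext libraries on a NovaSeq instrument, after extraction with a column kit per the methods or Trizol per the labels. The authors deposited FPKM per gene, with gene lengths. The submitters' processing notes name Bowtie 0.12.2 and the builds GRCm38, mm10 and hg38, without roles, and the counting software is not given in the sources used here. Column names of the IncPBF lungs (vo) differ from their titles (ipf), so these columns were mapped to the group but not to single samples, and lungs are numbered as in the columns. FPKM times length gave whole fragments for 100% of values (tolerance 0.01).

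Genes with a mean of at least 0.5 FPKM (15388) entered limma 3.58.1 (lmFit, eBayes with a trend, two-sided, R 4.3.3) on log2(FPKM + 0.1), IncPBF against sham, with Benjamini-Hochberg adjustment and a threshold of 0.05. This scale understates the differences of low genes. The fit was tested on simulated data. Alternatives changed the pseudocount (1, 0.01), the filter, the scaling (equal totals, median centring, quantile normalization), the replicate block, the variance trend, the lungs left out or log2 Xist as a covariate, or used limma-voom on the recovered fragments. Members, lists, motifs and named genes were chosen with earlier results of these data known. The text names all 8 members, per list up to 6 passing genes with the largest change and up to 4 abundant genes that did not pass, the genes most and least like Serpina3n, Xist, Ddx3y, and markers. Nr3c2, Hsd11b1, Hsd11b2, Gzmb, Elane and Ctsg are named to describe their lists. Serpina1 and Serpina6 genes are named only as list members. Transcripts and promoters were aligned with Biopython 1.88 (global, free end gaps, identity over aligned bases). Figures were drawn with Python 3.11.15 and matplotlib 3.10.9.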

Additional observations from a re-analysis of the deposited data

Results flagged for a closer look

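In 14 groups of 5 lungs, 7 members in each of the 2 groups, the highest or lowest lung was set against the others with Dixon's criterion, by which chance alone flags about 1 in 20 groups. It picked out 3, all of them the value of IncPBF lung 1. Serpina3f was at 2.80 FPKM there (gap to the next lung over the range 0.936), and at 0.186 to 0.355 in the other IncPBF lungs. Serpina3g was at 3.32 FPKM (0.750), and at 1.90 to 2.26 in the others. Serpina3m was at 0.0301 FPKM, which is 1 fragment, against 0 in the others, where any single fragment meets the criterion, so this value says nothing about the lung. The same lung was the only IncPBF lung with Ddx3y and almost no Xist, and had the highest level of the interferon list. Whether sex, the interferon genes or another property of this lung goes with the values of Serpina3f and Serpina3g was not tested, since they coincide in a single lung.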

How the results depend on the processing

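Serpina3n differed by -3.34 on the log2 scale with a pseudocount of 1, and by -3.83 to -3.61 in the other settings tried. Serpina3f turned to 1.19 with log2 Xist as a covariate and to 1.29 with IncPBF lung 1 alone against the sham lungs, and stayed lower without that lung. The other members with fragments kept their sign in every setting, but not their size. With a pseudocount of 1, Serpina3c was at -1.31, Serpina3h at -0.46, Serpina3i at -0.21 and Serpina3m at -0.23. With a pseudocount of 0.01, Serpina3i was at -1.40 and Serpina3m at -3.43, and with limma-voom at -1.38 and -2.95. Serpina3g was at -0.38 with log2 Xist as a covariate and at -0.32 with IncPBF lung 1 alone. The count of members without overlap was 3 to 5 with a lung left out, reaching 5 without IncPBF lung 1 and without sham lung 5. The share of all genes without overlap was not counted in these settings. Fewer lungs make a separation easier for any gene, so nothing is read from this rise.

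Without a filter on low values, 3125 genes passed, 1601 higher and 1524 lower, and the counts were 2 for the proteases, 7 for the gp130 list, 3 for the interferon list and 1 for the neighbouring genes. With log2 Xist as a covariate, which leaves the contrast to IncPBF lung 1, 741 genes passed, 328 higher and 413 lower, with 0 other serpins, 1 protease, 3 gp130 genes, 10 glucocorticoid genes, 19 interferon genes and 0 neighbours. With a minimum of 1 FPKM, 2 proteases passed. With each lung left out in turn, the counts ran from 3 to 5 for the proteases, 4 to 15 for the interferon list (15 without IncPBF lung 1) and 0 to 3 for the neighbours. Causes beyond these constructions were not tested. No clade A serpin outside the members could be tested at this level.

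Lung numbers did not pair the samples: same-numbered lungs had correlations of -0.0675 to 0.0854 in their deviations from the group means, and 2 of 10 lungs were closest to their own number. With the replicate number as a block, 4872 genes passed and 1 neighbour did. The other list counts stayed within 1.5 times those without the block, and Serpina3n stayed at -3.69.

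Depth limits Serpina3i, Serpina3k and Serpina3m, which had 1 to 17, 0 and 0 to 12 fragments per lung. Counting intervals do not cover the spread between mice, and reads shared between copies were not resolved here.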
